A study of Mus musculus with 6 samples.

Results

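Of 27179 gene identifiers in a table of read counts from mouse embryonic stem cells, 108 were small nucleolar RNAs (snoRNAs), small Cajal body RNAs (scaRNAs) or genes named as hosts from whose introns such RNAs are cut. They were chosen by symbol (Snord, Snora, Scarna, Snhg or Gas5) and by their measured total, with a minimum of 15 counts over the 6 libraries. In all, 142 identifiers had such a symbol, and 34 of them, 33 small RNAs and 1 host gene (Snhg9), fell short of that total, 14 with 0 counts. The 108 comprised 51 C/D box snoRNAs (Snord), 32 H/ACA box snoRNAs (Snora), 7 scaRNAs (Scarna) and 18 Snhg or Gas5 genes, called host genes here by their names. The annotation places a small RNA of the table in the span of 12 of these 18 and none in that of Snhg5, Snhg7os, Snhg11, Snhg15, Snhg17 or Snhg20. Scarna2, Scarna8, Snora19 and Snord13 stood just inside the threshold with 15 counts each, and Snord8 (13), Snord98 (12), Snord37 (11) and Snord88c (11) just outside it. The total adds the libraries of both groups, so the choice did not rest on the difference between them.

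The libraries were made from RNA selected with oligo(dT), 3 from cells with the R783H form of Trim71 and 3 from wild-type (WT) cells, each lettered A, B and C. Trim71 binds RNA through its NHL domain and is found in stem cells and early embryos, and the series concerns R783H as a change linked to hydrocephalus. Both groups carried FLAG-tagged Trim71 in the E14TG2a background, a mouse embryonic stem cell line, and were grown on gelatin in 2i + Lif medium, which combines leukemia inhibitory factor with inhibitors of MEK and GSK3. What the letters stand for (clones, dishes or preparations) is not in the labels, so p-values cover the spread between these libraries, which may be technical.

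Small nucleolar RNAs guide chemical changes on other RNAs, mainly ribosomal RNA. C/D box RNAs guide ribose methylation by fibrillarin, H/ACA box RNAs guide pseudouridylation by dyskerin, and scaRNAs do the same for spliceosomal RNAs in Cajal bodies; a few, such as Snora73a (U17) and Snord22 (U22), take part in cutting the ribosomal RNA precursor instead. In mammals most are trimmed out of the introns of host genes after splicing, so 1 transcript gives both a spliced host RNA and a small RNA. Many hosts encode ribosomal proteins or translation factors, while Snhg genes and Gas5 give spliced RNAs with little coding potential, several of which are degraded by nonsense-mediated decay. Mature snoRNAs mostly lack a poly(A) tail, so an oligo(dT) library holds them only in part.

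Members whose values the results turn on are printed with their boxes in capitals, since the 2 classes that are compared throughout are named for these boxes. The classes themselves were set by symbol. All stretches are from GENCODE M21 on GRCm38, 5′ to 3′, in the sense of the RNA. In the H/ACA box RNAs the capitals mark the H box (ANANNA) near the middle and the ACA box near the 3′ end. Snora73a (chr4:132352775-132352979, minus strand) lies in Snhg3, Snora61 (chr4:132310240-132310369, plus strand) in Snhg12, Snora17 (chr2:26639190-26639321, minus strand) in Snhg7, Snora21 (chr11:97781639-97781775, minus strand) in Rpl23 and Snora20 (chr17:12922790-12922917, plus strand) in Tcp1.
Snora73a: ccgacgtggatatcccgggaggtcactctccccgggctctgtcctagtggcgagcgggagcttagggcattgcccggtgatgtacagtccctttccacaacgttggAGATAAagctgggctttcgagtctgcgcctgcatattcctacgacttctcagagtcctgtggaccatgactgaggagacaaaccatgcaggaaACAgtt
Snora61: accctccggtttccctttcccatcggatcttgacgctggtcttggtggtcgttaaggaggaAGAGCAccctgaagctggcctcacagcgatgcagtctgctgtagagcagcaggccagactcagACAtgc
Snora17: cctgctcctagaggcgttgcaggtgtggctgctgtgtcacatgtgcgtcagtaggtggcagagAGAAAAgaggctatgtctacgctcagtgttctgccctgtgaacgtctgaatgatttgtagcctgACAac
Snora21: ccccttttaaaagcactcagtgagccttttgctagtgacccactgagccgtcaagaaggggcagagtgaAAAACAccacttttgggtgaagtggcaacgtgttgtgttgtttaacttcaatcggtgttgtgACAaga
Snora20: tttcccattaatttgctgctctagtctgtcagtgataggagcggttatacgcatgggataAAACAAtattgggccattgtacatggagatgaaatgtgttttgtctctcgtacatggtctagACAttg

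In the C/D box RNAs the capitals mark the C box (TGATGA) near the 5′ end and the D box (CTGA) near the 3′ end. Snord12 (chr2:167065276-167065365, plus strand) lies in Zfas1. Snord95 (chr11:48803139-48803206, plus strand) and Snord96a (chr11:48802032-48802112, plus strand) share the host Rack1 and moved in opposite directions.
Snord12: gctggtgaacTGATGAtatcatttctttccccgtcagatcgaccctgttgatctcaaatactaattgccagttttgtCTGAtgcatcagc
Snord95: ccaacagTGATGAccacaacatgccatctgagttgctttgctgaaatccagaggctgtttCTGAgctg
Snord96a: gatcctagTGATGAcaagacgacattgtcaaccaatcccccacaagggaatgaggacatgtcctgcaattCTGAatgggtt

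The boxes were searched on the RNA's own strand over all members of each class. TGATGA was found within the first 30 bases of 31 of the 51 C/D box RNAs (60.8%), against 1.6% of stretches of the same lengths from 39997 protein-coding transcripts, and CTGA within the last 20 bases of 49 (96.1%, against 10%). ANANNA was found within 15 bases of the middle of 29 of the 32 H/ACA box RNAs (90.6%, against 40.2%), and ACA within the last 8 bases of 30 (93.8%, against 10.7%). In the other class, TGATGA was found in 0 and CTGA in 3 of the 32 H/ACA box RNAs (9.4%). Of the 51 C/D box RNAs, ACA was found in 6 (11.8%) and ANANNA in 25 (49.0%), so the H box search does not separate the classes. Both boxes of their class were found in 29 C/D box RNAs (56.9%) and 27 H/ACA box RNAs (84.4%). The search windows of the boxes of a class do not overlap. The C/D box RNAs had a median length of 79 nt and the H/ACA box RNAs of 132 nt, so both classes are far shorter than a usual mRNA.

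Library totals ran from 20894277 to 29079670 counts, every R783H library being deeper than every WT library, and 3 counts, the floor used for detection, were worth 0.0998 to 0.149 CPM, the unit for counts relative to the TMM-scaled size of their library. Trim71 stood at 152, 129 and 150 CPM in R783H and 131, 131 and 159 CPM in WT, with overlap, and its log2 fold change was 0.03 (SE 0.08, adjusted p = 0.743 by edgeR's quasi-likelihood test, adjusted after Benjamini and Hochberg over all tested genes); with an offset for transcript length and GC content it was -0.30, with an adjusted p of 0.000971. The 8 embryonic stem cell markers summed to 6789.7 to 6924 CPM in R783H and 6957 to 7041 CPM in WT. Of the markers of other cell types, 4 endoderm genes summed to 7.51 to 8.48 against 3.10 to 4.95 CPM, 4 neural genes to 14.2 to 17.6 against 10.3 to 11.3 CPM and 7 fibroblast genes to 11.7 to 11.8 against 10.8 to 11.8 CPM, with none at 0 throughout; their part in the results was not tested. Within these lists, log2 fold changes of tested genes ran from 0.87 to 1.29 (endoderm), -1.01 to 0.96 (neural) and -2.74 to 0.38 (fibroblast). The neural and fibroblast sums thus mix genes of both directions. In bulk RNA, fewer cells of a kind and less RNA per cell cannot be told apart.

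The summed level of the small RNAs was lower in R783H. Of the 60 that could be tested, 22 were called lower (36.7%, close to the 30.9% of all tested genes). In the other direction 1 was called higher (1.67%, beside 33.5% of all tested genes), while host genes were called in both directions. Summed over the 90 small RNAs, the level was 81.5, 68.2 and 81.7 CPM in R783H A, B and C and 107, 107 and 111 CPM in WT, or 77.1 ± 7.76 against 108.3 ± 2.51 CPM (SD, n = 3 each). The groups did not overlap, and R783H B was the lowest library. The 32 H/ACA box RNAs summed to 31.8 ± 2.53 CPM in R783H and 52.1 ± 2.43 CPM in WT, a ratio of 0.611, and the 51 C/D box RNAs to 44.4 ± 5.16 and 54.8 ± 0.98 CPM, a ratio of 0.810, both without overlap. The 7 scaRNAs summed to 0.939 ± 0.178 and 1.41 ± 0.304 CPM, with overlap. The 18 host genes ran the other way, with 417 ± 26.2 CPM in R783H against 370.0 ± 7.81 CPM in WT, without overlap; leaving out Snhg11, they stood at 396 ± 23.3 and 364 ± 8.03 CPM and overlapped. Small RNAs took 0.00696% to 0.0108% of a library's counts, so nearly all of them rest on few reads: 47 of the 90 had under 20 counts in every library, and 6 reached 100 in any.

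Of the 108 members, 76 passed edgeR's filter on low counts: 35 C/D box RNAs, 25 H/ACA box RNAs, 16 host genes and 0 scaRNAs. A gene is called where edgeR's quasi-likelihood test gave an adjusted p under 0.05, and among all 14199 tested genes 64.5% were called, 30.9% lower and 33.5% higher in R783H. Against that background, 22 of the 60 small RNAs were called lower (36.7%, close to the background) and 1 higher (1.67%, far under it). Their log2 fold changes (R783H over WT) had a median of -0.36, where all tested genes had 0.03, and 50 of the 60 were negative. The groups stood apart in CPM, with no overlap, for 26 small RNAs that were lower and 1 that was higher; among all tested genes 68.1% stood apart, 33.1% lower and 35.0% higher. Snora20, Snora21 and Snora74a passed the filter through the WT libraries alone, so they had to be lower, and they are among the 22. Without them 19 of 57 were called lower (33.3%), with a median of -0.33.

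By class, 15 of 25 H/ACA box RNAs were called lower (60.0%, beside 30.9% of all tested genes) and 0 higher, with a median of -0.59. Without the 3 that passed through WT alone, all of this class, it was 12 of 22 (54.5%) with a median of -0.51. Of the 35 C/D box RNAs, 7 were called lower (20%, under the 30.9% of all tested genes) and 1 higher (2.86%, beside 33.5%), with a median of -0.25. At an unadjusted p under 0.05 by edgeR the small RNAs gave 23 lower and 1 higher, with no share of all genes at that threshold to set beside them. The difference between the classes was not tested. In the fit over every row with at least 15 counts, which takes in all 108 members, the background was 27.7% lower and 30.1% higher, and the 90 small RNAs gave 25 lower and 2 higher with a median of -0.34. That fit added Scarna2, Scarna9, Snord13 and Snord85 as lower and Snord19 as higher, and lost Snora31.

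**Figure D1:**
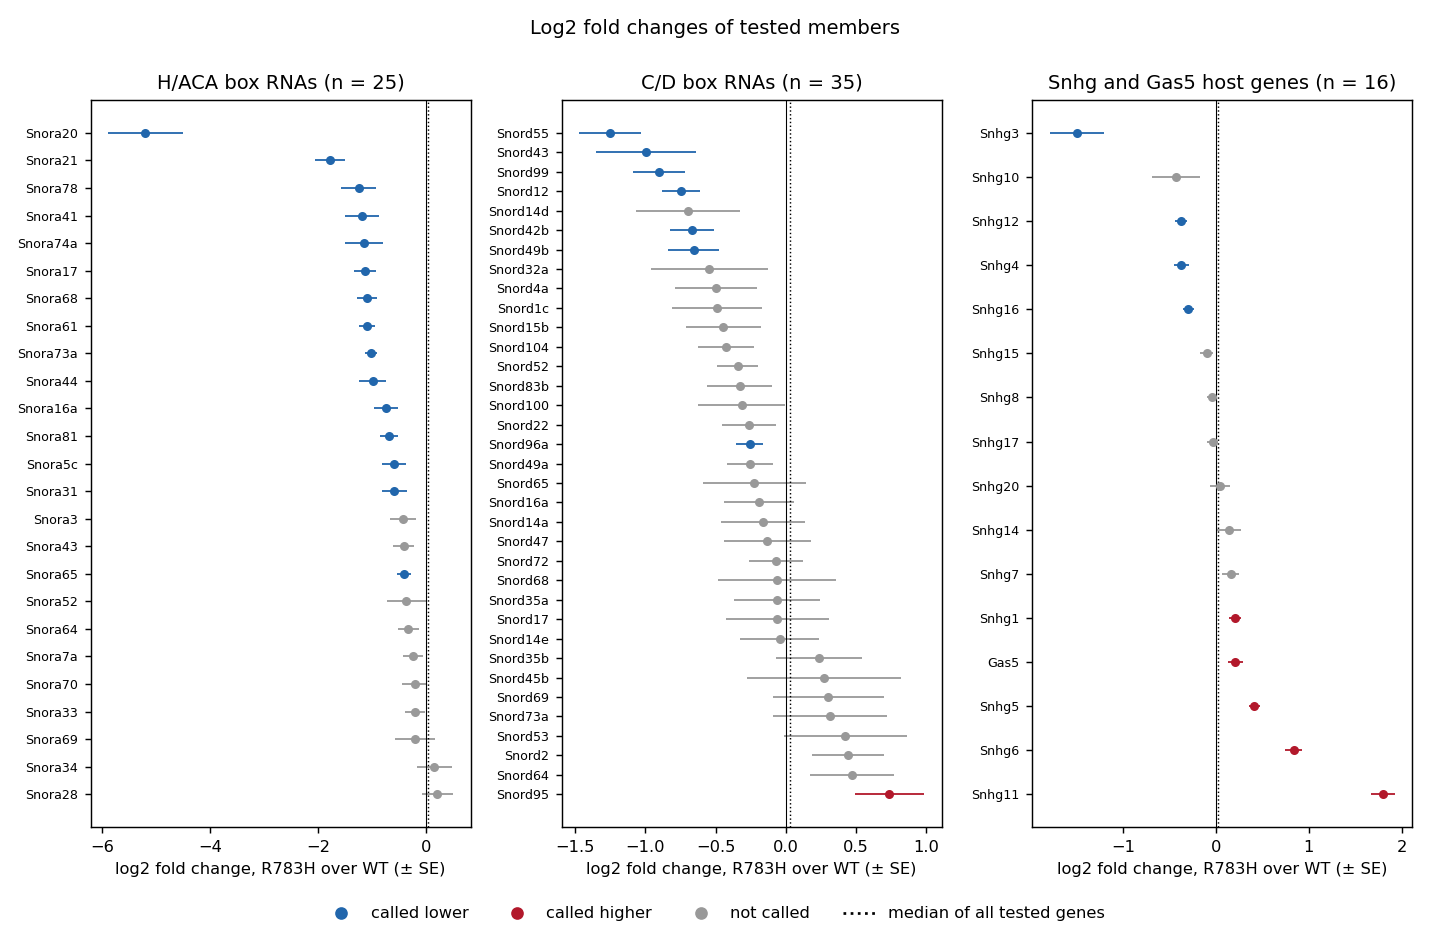
Log2 fold change (R783H over WT, ± SE; n = 3 libraries a group) of every tested member, in 3 panels for H/ACA box RNAs (n = 25), C/D box RNAs (n = 35) and host genes (n = 16), each with its own horizontal scale. Blue marks genes called lower, red called higher, grey not called, and the dotted line the median of all tested genes (0.03). Of the H/ACA box RNAs 23 of 25 lie under 0, of the C/D box RNAs 27 of 35, and of the host genes 8 of 16.

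Among the H/ACA box RNAs, Snora73a (U17), which acts in processing of the ribosomal RNA precursor, had the most counts. It stood at 5.09, 5.25 and 6.18 CPM in R783H and 11.9, 9.95 and 11.6 CPM in WT. Every R783H library was below every WT library, with a log2 fold change of -1.01 (SE 0.11, adjusted p = 1.23e-05 by edgeR's quasi-likelihood test). Its sequence is nearly identical to Snora73b, and it lies antisense to Gm17300, so its counts depend on how shared reads were assigned. Per kilobase it stood at 54.4 CPM per kb in WT, below the C/D box RNA Snord96a (107 CPM per kb) and beside the host Snhg5 (52.7 CPM per kb).

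Snora61 stood at 2.66, 1.90 and 2.06 CPM in R783H and 4.36, 5.06 and 4.69 CPM in WT, without overlap, a log2 fold change of -1.09 (SE 0.15, adjusted p = 7.97e-05 by edgeR's quasi-likelihood test). Snora17 stood at 1.03, 0.916 and 0.945 CPM against 2.33, 1.63 and 2.44 CPM, a log2 fold change of -1.13 (SE 0.21, adjusted p = 0.000669 by edgeR). In both, the highest R783H library lay well below the lowest WT library. Snora21 held 9, 8 and 8 counts in R783H and 22, 22 and 21 counts in WT, or 0.299, 0.282 and 0.270 against 1.09, 0.897 and 0.984 CPM. The log2 fold change was -1.78 (SE 0.27), given as a description, since Snora21 passed the filter through WT alone and its direction was fixed by that.

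Snora20, which also passed the filter through WT alone, had the largest change and the fewest counts of the tested small RNAs. It held 0, 0 and 1 counts in R783H and 9, 18 and 12 counts in WT, so WT was 52.0-fold higher after scaling, with an exact 95% interval of 8.80 to 2105 that covers counting error alone. Its fitted log2 fold change (-5.19) depends on the prior count and is no measure of size. Its host Tcp1, which encodes a subunit of the cytosolic chaperonin, stood at 670.0 ± 38.2 and 812 ± 20.03 CPM and was called lower (log2 fold change -0.28, adjusted p = 0.000397 by edgeR's quasi-likelihood test).

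The other H/ACA box RNAs among the 12 largest decreases, Snora78, Snora41, Snora74a, Snora68 and Snora44, had log2 fold changes of -1.24, -1.18, -1.15, -1.09 and -0.99, that of Snora74a being a description for the same reason. For Snora68 the CPM ranged from 0.898 to 1.08 in R783H and from 1.93 to 2.45 in WT, and for Snora44 from 0.458 to 0.810 against 1.24 to 1.47. Snora41 was the closest to overlap, with 0.665 CPM in R783H A and 0.743 CPM in WT A. Snora65, the H/ACA box RNA with the second most counts, fell by less, from 5.34 ± 0.464 CPM in WT to 4.01 ± 0.544 CPM in R783H (log2 fold change -0.41, adjusted p = 0.0167 by edgeR's quasi-likelihood test), and the call was lost in 4 of 14 alternative settings. The remaining H/ACA box RNAs that were not called, 10 in number, had log2 fold changes from -0.43 to 0.21.

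Among the C/D box RNAs, Snord55 fell most. It stood at 0.532, 0.634 and 0.810 CPM in R783H and 1.68, 1.55 and 1.5 CPM in WT, or a log2 fold change of -1.25 (SE 0.22, adjusted p = 0.000488 by edgeR's quasi-likelihood test). Snord43, cut from Rpl3, held 7, 11 and 16 counts against 21, 17 and 13, which do not overlap as CPM (0.233 to 0.540 against 0.609 to 1.04), and its call (log2 fold change -0.99, adjusted p = 0.0290 by edgeR) was lost in 4 of 13 settings. Snord12 and Snord99, chosen after their values were seen, had log2 fold changes of -0.75 and -0.90 and kept their calls in all 14 settings.

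Snord95 was the sole small RNA called higher in the 60 tested. It stood at 0.965, 0.881 and 0.810 CPM in R783H and 0.495, 0.571 and 0.516 CPM in WT, without overlap, a log2 fold change of 0.74 (SE 0.25, adjusted p = 0.0218 by edgeR's quasi-likelihood test). The call was lost in 5 of 14 settings, among them DESeq2, and Snord95 has a near-identical stretch in another gene. Snord96a, in the same host gene Rack1, stood at 7.75, 6.80 and 7.26 CPM in R783H and 8.02, 8.85 and 9.19 CPM in WT, lower in every R783H library (log2 fold change -0.26, adjusted p = 0.0347 by edgeR), and lost its call in 8 of 14 settings. Snord104, the C/D box RNA with the second most counts, stood at 3.99, 2.64 and 4.83 CPM against 5.50, 5.67 and 4.27 CPM, with overlap, and was not called (-0.43, adjusted p = 0.0772 by edgeR). Snord22 (U22), which acts in ribosomal RNA precursor processing, overlapped too, at 2.18 to 3.44 against 3.02 to 4.31 CPM (-0.26, adjusted p = 0.256 by edgeR). The 27 C/D box RNAs that were not called had log2 fold changes from -0.70 to 0.47.

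**Figure D2:**
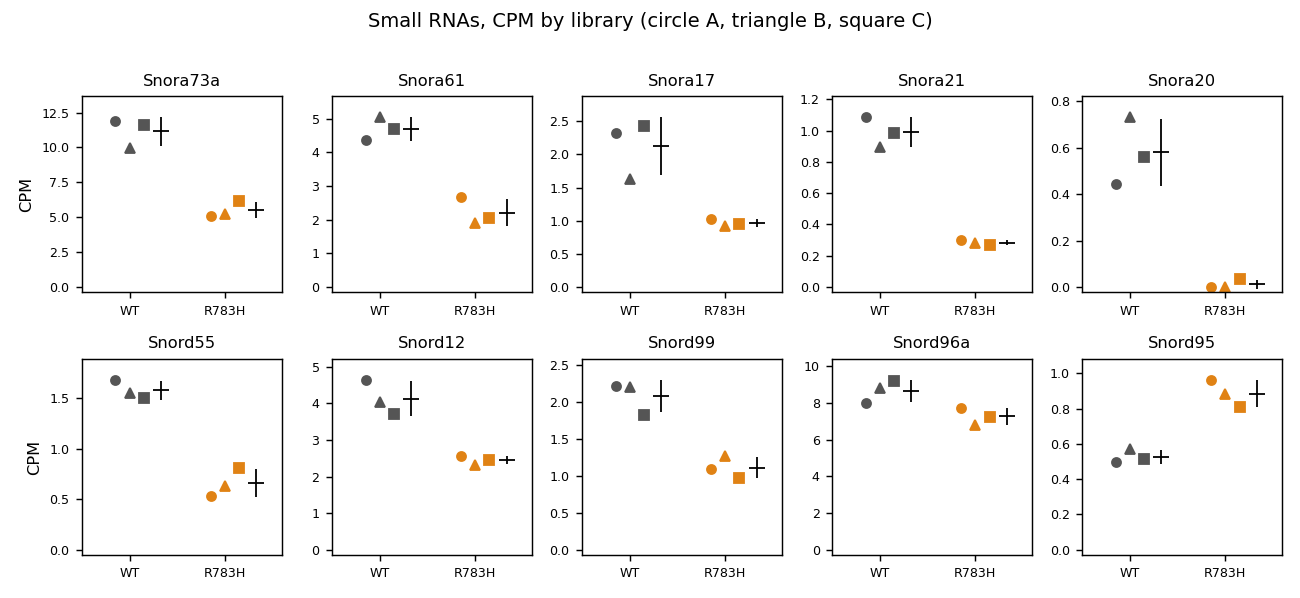
CPM of 10 small RNAs in each library (vertical axes from about 0, a scale of its own for each panel), WT in grey and R783H in orange, with circle, triangle and square for libraries A, B and C and a cross for the mean ± SD (n = 3). In all panels the groups stand apart. Snord95 is the single panel with R783H above WT, and Snord96a shows the smallest gap.

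The scaRNAs, which guide changes on spliceosomal RNAs, held 15 to 36 counts over the 6 libraries and did not pass the filter. Scarna2 held 0, 0 and 1 counts in R783H and 3, 9 and 2 in WT, and Scarna9 held 2, 1 and 2 against 8, 11 and 5. In the fit over every row with at least 15 counts both were called lower, with adjusted p of 0.00775 and 0.00188 by edgeR's quasi-likelihood test, and the other 5 scaRNAs overlapped, with no difference detectable at this depth.

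Host genes were called in both directions at shares near the background: 4 of 16 lower (25%, beside 30.9%) and 5 higher (31.2%, beside 33.5%), with a median of 0.01. The sign of that median changed with RLE size factors and with DESeq2 (-0.02 each) and without R783H A (-0.04), R783H C (-0.02) or WT A (-0.01). Snhg11 rose most, from 6.19, 5.75 and 6.09 CPM in WT to 24.6, 17.1 and 20.96 CPM in R783H, a log2 fold change of 1.80 (SE 0.13, adjusted p = 7.41e-07 by edgeR's quasi-likelihood test). Snhg6 stood at 31.3, 27.1 and 34.2 CPM in R783H and 15.8, 18.6 and 17.2 CPM in WT (log2 fold change 0.84, SE 0.09, adjusted p = 1.44e-05 by edgeR), and Snhg5 at 84.4, 81.7 and 91.6 against 65.8, 65.9 and 61.5 CPM (0.42, SE 0.06, adjusted p = 6.43e-05 by edgeR). None of the 3 overlapped between groups.

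Gas5, a non-coding RNA that builds up in growth arrest and whose spliced form is a known target of nonsense-mediated decay, and Snhg1, the host of Snord22, rose by less. Gas5 stood at 45.3, 38.4 and 47.2 CPM in R783H and 34.4, 38.9 and 39.7 CPM in WT, R783H B lying inside the WT range. Its log2 fold change was 0.21 (adjusted p = 0.0407 by edgeR's quasi-likelihood test), and the call was lost in 7 of 14 settings. Snhg1 stood at 63.6, 59.6 and 62.2 CPM against 48.5, 57.9 and 54.2 CPM, without overlap (0.21, adjusted p = 0.0161 by edgeR), and lost its call without R783H A or without WT A.

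Snhg3, the host of Snora73a, fell most among the hosts, with 24, 11 and 17 counts in R783H and 44, 39 and 27 counts in WT, or 0.799, 0.388 and 0.574 against 2.18, 1.59 and 1.27 CPM. The groups did not overlap, and the log2 fold change was -1.49 (SE 0.29, adjusted p = 0.000988 by edgeR's quasi-likelihood test). Snhg12 stood at 18.6, 17.8 and 18.3 CPM in R783H and 24.3, 23.7 and 22.9 CPM in WT (log2 fold change -0.38, SE 0.06, adjusted p = 0.000265 by edgeR). Snhg4, the host of Snora74a, had a log2 fold change of -0.37 and Snhg16, the host of Snord1c, of -0.29, with adjusted p of 0.00215 and 0.000809 by edgeR, also without overlap.

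The 7 hosts that were not called were Snhg10 (-0.43), Snhg15 (-0.10), Snhg8 (-0.04), Snhg17 (-0.03), Snhg20 (0.05), Snhg14 (0.14) and Snhg7 (0.16), in log2 fold change. Snhg15 stood at 16.9 to 18.9 CPM in R783H and 19.0 to 19.8 CPM in WT and did not overlap, while the other 6 did. Snhg14, the long RNA of the Prader-Willi and Angelman region, ranged from 11.5 to 16.3 CPM in R783H and from 11.6 to 14.4 CPM in WT. Snhg18 and Snhg7os, with 43 and 32 counts in all, were not tested. Snhg7os, an opposite-strand gene at Snhg7, held 8, 7 and 11 counts against 2, 2 and 2, and was called higher in the fit over every row with at least 15 counts (log2 fold change 1.65).

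**Figure D3:**
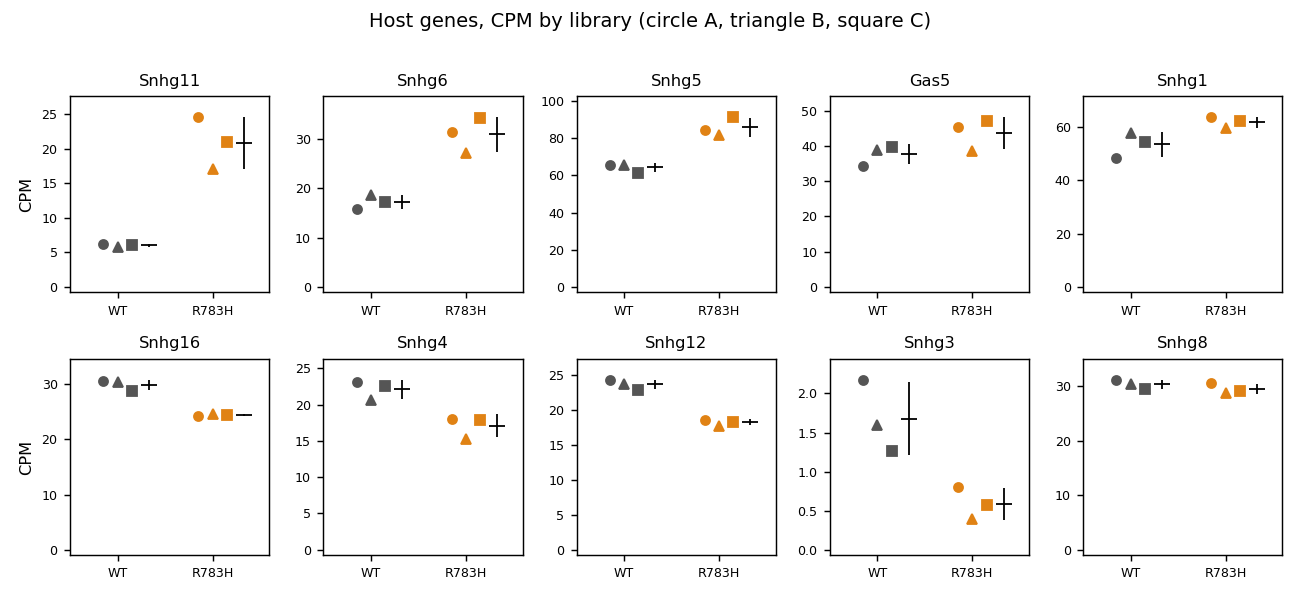
CPM of 10 host genes in each library (vertical axes from about 0, a scale of its own for each panel), WT in grey and R783H in orange, with circle, triangle and square for libraries A, B and C and a cross for the mean ± SD (n = 3). Snhg11, Snhg6, Snhg5, Gas5 and Snhg1 are the genes called higher, with Gas5 overlapping; Snhg16, Snhg4, Snhg12 and Snhg3 are those called lower, and Snhg8 overlaps.

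Because host RNA and small RNA come from the same transcript, each small RNA was set against the gene that holds it. Of the 90 small RNAs, 86 had an annotated host (66 genes), and 58 pairs over 45 hosts had both members tested. The log2 ratio of small RNA to host (CPM plus 0.1) was lower in every R783H library than in any WT library for 28 pairs, higher for 4 and overlapping for 26, with a median difference of -0.46. Without the 3 small RNAs that passed the filter through WT alone it was 26 lower, 4 higher and 25 overlapping of 55 (median difference -0.41). Single tested genes did not overlap in 33.1% and 35.0% of cases, and no such share was computed over other pairs. Without R783H B, the library with the lowest small RNA sum, the median difference was -0.30. Fold changes of small RNA and host ran with a Pearson r of 0.085 and a Spearman rho of 0.015 over the 58 pairs, which share libraries and in part the same host.

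Of the 21 small RNAs called lower in these pairs, 8 had a host that was called higher. For 4 the host was not called, and for 9 it was called lower, 4 of these 9 lying in Snhg12. Without the 3 that passed through WT alone it was 7, 4 and 7 of 18. Over all 45 hosts in the pairs, 18 were called higher and 13 lower, and a difference from these shares was not tested. In a Snhg or Gas5 host, 8 of 13 small RNAs were called lower (61.5%, beside 30.9% of all tested genes) and 0 higher (median -0.90). Among them were 7 of 8 H/ACA box RNAs, and 4 of the 8 called lower shared the host Snhg12. Without Snora74a it was 7 of 12 (58.3%) and 6 of 7. In protein-coding hosts the count was 12 lower and 1 higher of 41 (median -0.26), 12 being 29.3%, close to the background of 30.9%; without Snora20 and Snora21 it was 10 of 39 (25.6%). In other non-coding hosts it was 2 lower of 5 (40%, beside the same 30.9%). Small RNAs whose span overlaps an exon of the GENCODE gene that holds them gave 12 lower (33.3%, close to the background) and 1 higher of 36. Those that overlap none gave 9 lower of 21 (42.9%, beside the same 30.9%), or 6 of 18 (33.3%) without the 3 that passed through WT alone. For Snord64 and Snora74a that gene was not the host named here (Snhg14 and Snhg4). Snora17, Snora43 and Snord104 had no such gene and were left out.

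**Figure D4:**
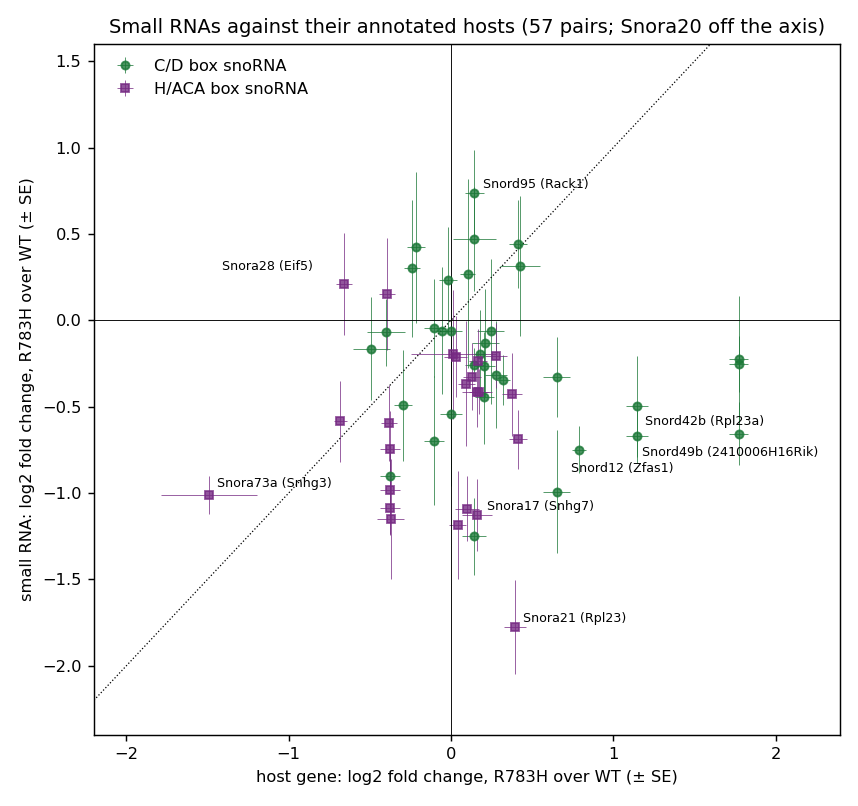
Log2 fold change (R783H over WT, ± SE; n = 3 libraries a group) of 57 small RNAs, vertical, against that of their annotated hosts, horizontal, with circles for C/D box and squares for H/ACA box RNAs; Snora20 (-5.19) lies off the axis. The dotted line marks equal change. Most points lie under it, and small RNAs of the hosts with the largest increases (2410006H16Rik, Rpl23a and Zfas1) lie under 0.

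Zfas1, a non-coding host RNA, showed the contrast within a transcript; Zfas1, 2410006H16Rik, Rpl23a and Eif4a2 with their small RNAs were chosen after their values were seen. Zfas1 stood at 97.2, 97.2 and 94.6 CPM in R783H and 56.7, 55.9 and 54.6 CPM in WT, or a log2 fold change of 0.79 (SE 0.05, adjusted p = 1.64e-07 by edgeR's quasi-likelihood test). Snord12 from its intron stood at 2.56, 2.33 and 2.46 CPM in R783H and 4.65, 4.04 and 3.70 CPM in WT, or a log2 fold change of -0.75 (SE 0.14, adjusted p = 0.000599 by edgeR). The log2 ratio of Snord12 to Zfas1 was lower in every R783H library than in any WT library, with a difference of -1.51.

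The non-coding host 2410006H16Rik rose from 44.5, 50.3 and 52.0 CPM in WT to 171, 164 and 168 CPM in R783H (log2 fold change 1.77, adjusted p = 9.54e-09 by edgeR's quasi-likelihood test). Of its 3 C/D box RNAs, Snord49b was called lower (1.16, 1.45 and 1.65 against 2.13, 2.16 and 2.44 CPM, log2 fold change -0.66), and Snord49a (-0.25) and Snord65 (-0.22) were not called. Rpl23a, which encodes a large-subunit ribosomal protein, rose from 19.4 ± 1.41 to 42.9 ± 2.16 CPM (1.15), a low level beside hosts such as Rps3 (1950 CPM in WT). Of its tested C/D box RNAs, Snord42b was called lower (1.497, 1.44 and 1.45 against 2.38, 2.32 and 2.30 CPM, -0.67) and Snord4a (-0.50) was not. On the log2 scale Rpl3 rose by 0.65 while Snord43 fell by 0.99. Rpl23, the host of Snora21, rose by 0.40. In Eif4a2, a translation initiation factor gene that rose by 0.41, the H/ACA box RNA Snora81 was called lower (log2 fold change -0.69, adjusted p = 0.00412 by edgeR), and the C/D box RNA Snord2 stood at 0.44 and was not called (adjusted p = 0.149 by edgeR).

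In Snhg12 host and small RNAs moved the same way. Its 4 small RNAs, Snora61, Snora44, Snora16a and Snord99, were all called lower (log2 fold changes of -1.09, -0.99, -0.75 and -0.90), and Snhg12 itself at -0.38. The ratio to the host was lower without overlap for 3 of the 4, Snora16a being the exception. In Snhg3 the host fell by 1.49 and Snora73a by 1.01 on the log2 scale, and their ratio overlapped between groups. Snora73a also lies in the span of Rcc1 on the same strand, and Snhg3 stood lower than Snora73a in WT (1.68 against 11.2 CPM). The values of Snhg3 and of this ratio therefore depend on how reads shared with Rcc1 were assigned, which is not known. In Snhg7 the host was not called (0.16), Snora17 was called lower and Snora43 was not (-0.41, adjusted p = 0.0915 by edgeR's quasi-likelihood test).

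Hosts that encode ribosomal proteins gave 25 tested small RNAs, of which 6 were called lower (24.0%, under the 30.9% of all tested genes) and 0 higher, with a median of -0.33; without Snora21 it was 5 of 24. The 23 ribosomal protein host genes themselves gave 2 lower and 13 higher (56.5%, beside 33.5% of all tested genes), with a median of 0.17. Their levels differed widely, with WT means of 0.827 CPM for Rpl39, 5.06 for Rps13 and 19.4 for Rpl23a, beside 1950 for Rps3. How reads shared with near-identical genes were assigned is not known, and the part of this in the host changes was not tested. In the translation factor gene Eef1b2, which was not called (0.04), the H/ACA box RNA Snora41 was called lower. The 4 pairs with a higher ratio in R783H were Snora28 with Eif5, Snord95 with Rack1, Snord14a with Rps13 and Snord72 with Rpl37. In 3 of them the host was called lower (Eif5 -0.66, Rps13 -0.49, Rpl37 -0.40) and the small RNA was not called.

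Genes that build and process the small RNA particles were lower in R783H nearly throughout. Over 45 genes of the C/D and H/ACA cores, particle assembly, Cajal body and cap, intron and 3′ end processing and the nuclear exosome, 42 were called lower (93.3%, beside 30.9% of all genes) and 1 higher, with a median of -0.40 beside 0.03. These lists were drawn from general knowledge with results of these data known, and their part in the small RNA levels was not tested.

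All 4 C/D core genes were called lower, with a median of -0.44. Fbl, the methyltransferase fibrillarin, stood at 119, 141 and 119 CPM in R783H and 188, 180 and 198 CPM in WT (log2 fold change -0.58), Snu13, which binds the kink-turn of the C and D boxes, had -0.69, Nop56 -0.30 and Nop58 -0.27. All 4 H/ACA core genes were called lower as well, with a median of -0.68. Nhp2 stood at 180, 208 and 183 CPM against 356, 339 and 325 CPM (-0.84, adjusted p = 6.14e-07 by edgeR's quasi-likelihood test), Nop10 had -0.79, Gar1 -0.57 and Dkc1, the pseudouridine synthase dyskerin, -0.24. The groups did not overlap for any of the 8.

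Among assembly factors 11 of 11 were called lower (median -0.50). Nolc1, a nucleolar phosphoprotein that binds these particles, stood at 295, 309 and 312 CPM in R783H and 509, 499 and 496 CPM in WT (log2 fold change -0.72), the helicase Ruvbl2 had -0.70 and the zinc-finger factor Znhit3 -0.67. Of the Cajal body and cap genes Wrap53, which carries scaRNAs to Cajal bodies, had -0.40 and Coil, the scaffold coilin, -0.29, both called lower, and Tgs1, which hypermethylates the cap of some small RNAs, was called higher (0.20). Among intron and 3′ end processing genes 5 of 6 were called lower, led by Dbr1, the enzyme that opens intron lariats, at 40.3, 37.5 and 37.1 against 56.1, 56.7 and 60.6 CPM (-0.59), followed by Toe1 (-0.50) and Tent4b (-0.23).

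Of the nuclear exosome and its cofactors, which trim snoRNA 3′ ends and degrade faulty copies, 16 of 17 were called lower (median -0.39), led by Exosc4 (28.0, 32.8 and 32.3 against 56.3, 56.3 and 51.7 CPM, log2 fold change -0.82), Exosc3 (-0.74) and C1d (-0.59). Nonsense-mediated decay, which removes several spliced host RNAs, gave 4 lower and 4 higher of 10, or 40% each, near the 30.9% and 33.5% of all tested genes (median -0.05). Smg1, its kinase, was called higher (0.48) and so was Upf2 (0.36), whereas Smg5 was called lower (-0.42). With the length and GC offset Smg1 was 0.01 and was not called.

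**Figure D5:**
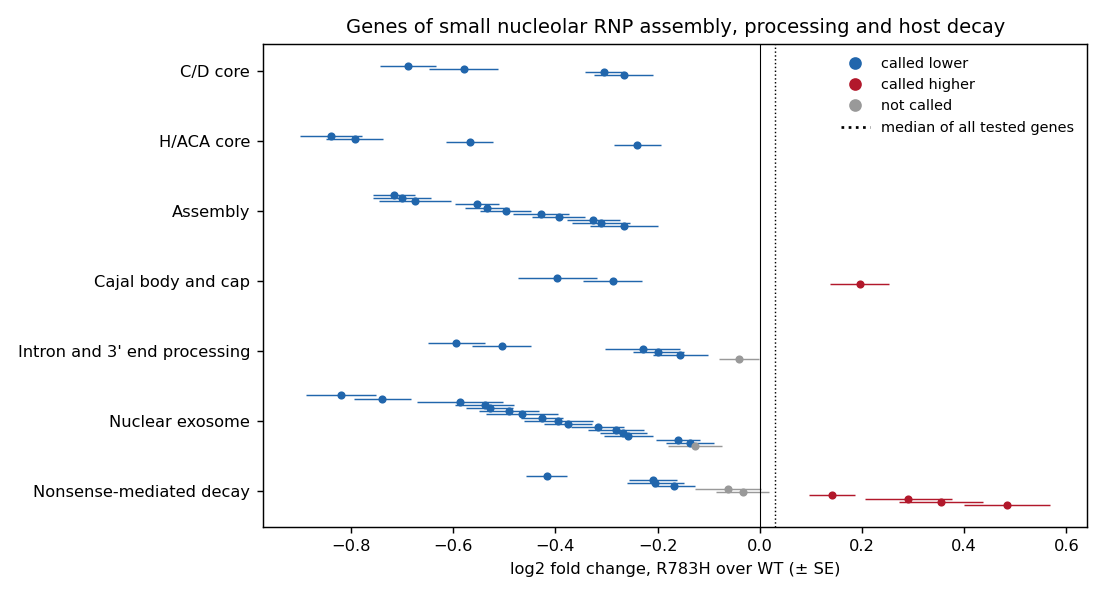
Log2 fold change (R783H over WT, ± SE; n = 3 libraries a group) of genes in 7 lists, 1 point a gene, blue for called lower, red for called higher and grey for not called; the dotted line is the median of all tested genes (0.03). Points of the first 6 lists lie left of 0 except Tgs1, and those of nonsense-mediated decay lie on both sides.

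Other measures moved with the small RNAs. Of 24 listed RNAs that, like snoRNAs, mostly lack a poly(A) tail, 7 passed the filter. Of these 7, 5 were called lower (71.4%, beside 30.9% of all tested genes) and 0 higher (median -1.47). Rpph1, the RNA of ribonuclease P, stood at 0.333, 1.09 and 0.945 CPM in R783H and 12.5, 10.2 and 16.03 CPM in WT (log2 fold change -4.03, adjusted p = 3.98e-07 by edgeR's quasi-likelihood test), Rn7sk had -2.03 and the mitochondrial ribosomal RNA mt-Rnr1 -1.47. Replication-dependent histone genes gave 23 lower (74.2%, beside the same 30.9%) and 0 higher of 31 (median -0.90), with H2bc8, H4c2 and H2ac19 the largest. Of 63 histone genes 31 passed the filter. Genes of both lists that passed it through WT alone had to be lower, and they were not counted apart. In the fit over every row with at least 15 counts, 33 of 52 histone genes were lower and 0 higher. In that fit 6 of 8 RNAs that mostly lack a poly(A) tail were lower and 0 higher, beside 27.7% lower of all rows. Their part in the small RNA result, and that of oligo(dT) selection, was not tested.

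Log2 fold changes also differed with transcript length, whose part in the small RNA result was not tested. Tested genes over 3000 nt had a median log2 fold change of 0.12, those between 1000 and 3000 nt of -0.10 and those between 300 and 1000 nt of -0.12. The 34 tested genes of at most 300 nt that are not small RNA members had a median of -0.15. Of these, 9 were called lower (26.5%, beside 30.9% of all tested genes) and 5 higher (14.7%, beside 33.5%). With a per-library offset for length and GC content the small RNA median was -0.29, beside -0.02 for all genes, with 18 lower and 1 higher of 60. With every library thinned to 20894277 counts, the smallest total, the median was -0.43 over the 50 small RNAs still tested, 17 of them lower and 0 higher (edgeR gave 1 higher at an unadjusted p under 0.05). No share of all genes called is given for the offset or for thinning, so these counts by themselves show no excess of lower small RNAs. The host gene medians under the same settings were 0.08 and 0.02.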

How the data were processed

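RNA sequencing gave 6 libraries, 3 of R783H and 3 of WT cells, grouped by their titles. The authors deposited 1 table of raw read counts per Entrez gene, a column for each library, with whole numbers and no normalization. The submitters' processing notes name CASAVA 1.4, HISAT2, SAMtools and the build mm10, and the counting tool, annotation and strand use are not given in the sources used here. Reads that a small RNA shares with a host exon (36 of the tested small RNAs), with an antisense gene or with a near-identical copy (24 of 90, at 95% identity over at least 50 nt in BLAST 2.17.0) may have been split, dropped or merged, and reads of unspliced host RNA cannot be told from those of the small RNA.

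Symbols came from the RefSeq table of GRCm38.p6, which named 25275 of 27179 identifiers. Positions, sequences and hosts came from GENCODE M21 on GRCm38 (mm10), a host being the gene whose span holds the small RNA on the same strand. Where several genes did, a Snhg gene or Gas5 was taken first, as for Snora73a, which lies in both Snhg3 and Rcc1. For Snora17, Snora43, Snora74a and Snord64 the host came from the RefSeq span, without a check of strand.

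Counts were analysed in R 4.3.3 with edgeR 4.0.16 and limma 3.58.1: filterByExpr at its defaults (minimum count 10, minimum total 15), TMM scaling, glmQLFit and glmQLFTest with group as the single term, and Benjamini-Hochberg adjustment over 14199 genes. The SE is the log2 fold change divided by the square root of F. Means are ± SD over 3 libraries. Intervals cover counting error, since without molecular identifiers several reads can stem from 1 molecule.

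Tested on simulated data for 14199 genes of these libraries, the fit called 92 of 100 genes changed 2-fold and 82 of 100 changed 1.5-fold, with 6 false calls and 0 calls when nothing was changed. The changed genes were drawn from all tested genes (median 22.9 CPM, beside 0.531 CPM for the 90 small RNAs). They were also far fewer than the genes called in the data. These rates therefore do not carry over to the small RNAs. The letters were not taken as pairs.

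The text names the tested hosts, the small RNAs called higher, the 12 largest decreases, the 6 with the most counts, members at the threshold, hosts of these, the 3 largest called changes per list and Trim71; others were chosen after their values were seen. The values of some host genes and 1 small RNA's sequence are not reported here. Members and lists were chosen with earlier results of these data known. Alternatives were 2 other filters, RLE size factors, library size alone, DESeq2 1.42.0, a replicate block, thinning, an offset for length and GC content, and each library left out. Counts without the 3 small RNAs that passed the filter through WT alone were added after the data were seen.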

Additional observations from a re-analysis of the deposited data

How the results depend on the processing

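Over 14 alternative settings the small RNAs called lower ranged from 16 to 25 and their median from -0.48 to -0.26, both ends of the median coming from leaving out 1 R783H library (A and B). The 25 were of 90 in the fit over every row with at least 15 counts, close to the 27.7% of all rows called lower there. Settings differed in how many small RNAs they tested, so these counts do not rank the settings. The number called higher was 2 with every row of at least 15 counts, 0 with DESeq2 (0 at an unadjusted p under 0.05), 0 after thinning (1 unadjusted by edgeR) and 0 to 3 with a library left out. Host genes called higher numbered 3 to 7 with a library left out, 3 without R783H A or WT A. With the letter as a replicate block 23 small RNAs were lower and 1 higher, and 4 hosts lower and 5 higher. The block changed the call of Snord104 alone among the small RNAs, to lower. Same-letter libraries correlated at -0.07 to 0.09 in their deviations from the group means, and not every library was closest to its own letter, so no pairing was assumed.

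For the lists and pairs the alternatives were added after the data were seen. Particle genes called lower ranged from 37 to 44 of 45, and those called higher were 0 with the length and GC offset and 0 to 1 with a library left out. Nonsense-mediated decay genes called lower were 2 with library size alone, and those called higher 2 with the length and GC offset and 2 to 4 with a library left out. With at least 10 counts in every library, 3 RNAs without a poly(A) tail and 13 histone genes were lower, since fewer were tested. The median difference (R783H minus WT) in the log2 ratio of small RNA to host was -0.31 with 0.5 CPM added, and -0.54 to -0.30 with a library left out.

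Reversed signs, all without a call except Trim71, were Snhg17 0.048, Snhg8 0.043 and Snord72 0.012 with library size alone, which moved the median of all genes to 0.11; Snord72 0.13 after thinning; and Snhg15 0.042, Snhg8 0.081 and Trim71 -0.30 with the length and GC offset. With a library left out, values that crossed 0 ran from -0.041 to 0.12 for Snhg20, -0.0219 to 0.13 for Trim71, -0.040 to 0.072 for Eef1b2, -0.12 to 0.39 for Snora28 and -0.58 to 0.075 for Snord65. The causes were not tested. Depth limits the scaRNAs and the small RNAs under 20 counts most.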
